A study of Mus musculus with 9 samples.

Results

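The immunity-related GTPases (IRG proteins) were followed here as 7 genes, Irgm1, Irgm2, Igtp, Iigp1, Tgtp1, Tgtp2 and Ifi47, taken by symbol from tables that each listed 23234 features. All 7 were present in all 9 tables and all 7 passed the filter on low values (mean FPKM of 1 or more across libraries), which left 11014 genes to test. FPKM is the number of sequenced fragments per kilobase of transcript, scaled to the mapped fragments of the library, so levels of different genes can be compared on this scale. The cells were group 2 innate lymphoid cells (ILC2s), lymphocytes without antigen receptors that make type 2 cytokines, isolated from the lymphoid clusters of adipose tissue of wild-type C57BL/6 mice. Every culture received IL-33 at 10 ng/ml for 48 h. A set of 3 libraries had IL-33 alone, another 3 had IFN-γ as well, and another 3 had IL-27 as well, each at 10 ng/ml, and no culture lacked IL-33. The labels do not give the age or sex of the mice, or say whether replicates were separate animals, pools or cultures, so the spread behind each p-value is that between libraries and may be technical.

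IRG proteins are interferon-inducible GTPases of the mouse that protect cells against intracellular parasites and bacteria living in vacuoles. The regulatory members, Irgm1, Irgm2 and Igtp (Irgm3), sit on the cell's own membranes and hold the effector members in the inactive, GDP-bound state. The effectors, among them Iigp1 (Irga6) and Tgtp (Irgb6), gather on the membrane of a vacuole such as that of Toxoplasma gondii, where they bind GTP, assemble and break the membrane. Both IFN-γ and IL-27 signal through receptors coupled to Janus kinases.

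The names of the classes come from the G1 motif of the GTP-binding pocket, in which the regulators have Gly-Met-Ser (GMS) and the effectors the usual Gly-Lys-Ser (GKS). The coding sequence of the motif was read from the GENCODE vM1 transcripts (build mm9) and is shown because it assigns each member to its class. The capitals mark the codon for the methionine or lysine, in each case within a coding exon.
Irgm1: ggggactctggcaatggcATGtca
Irgm2: ggggactctggcaatggcATGtca
Igtp: ggggactctggcaatggcATGtca
Tgtp1: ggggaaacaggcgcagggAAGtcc
Tgtp2: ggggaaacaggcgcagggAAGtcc
Ifi47: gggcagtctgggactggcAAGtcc
The 3 regulators had identical runs here. They lie at chr11:48680263-48680286 on the minus strand (Irgm1), chr11:58033197-58033220 on the plus strand (Irgm2) and chr11:58019777-58019800 on the plus strand (Igtp). The Tgtp1 and Tgtp2 runs, at chr11:48801169-48801192 and chr11:48873036-48873059 on the minus strand, were identical to each other, and the Ifi47 run is at chr11:48909150-48909173 on the plus strand. Ifi47 (Irgd) had the lysine codon too, as did Iigp1, but since Ifi47 was not among the effectors named for the contrast of the 2 classes it was kept apart from both.

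The members lie in 3 places of build mm9. Irgm1 (ENSMUSG00000046879.5, chr11:48675470-48685185), Tgtp1 (ENSMUSG00000078922.3, chr11:48798829-48807674), Tgtp2 (ENSMUSG00000078921.3, chr11:48870696-48877708) and Ifi47 (ENSMUSG00000078920.2, chr11:48890089-48910476) form a first cluster. Igtp (ENSMUSG00000078853.2, chr11:58013058-58021093) and Irgm2 (ENSMUSG00000069874.5, chr11:58028530-58036282) form a second cluster farther along the same chromosome, and Iigp1 (ENSMUSG00000054072.5) lies on another chromosome.

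Promoter windows of 300 bases, from 250 before to 50 after the annotated start, were taken from RefSeq (build GRCm38.p6), and 6 of the 7 members had one. They were searched on both strands for TTCNNNGAA, the core of the GAS (gamma-activated site) element, and for GAAANNGAAA, the core of the ISRE (interferon-stimulated response element) that IRF proteins bind. The stretches below hold the matches, which are in capitals, and are shown because the same arrangement recurs in several of them. Any part of it in the changes of these genes was not tested.
Irgm2: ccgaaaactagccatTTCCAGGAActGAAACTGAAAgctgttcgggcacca
Igtp: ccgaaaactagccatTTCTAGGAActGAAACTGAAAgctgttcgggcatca
Tgtp1: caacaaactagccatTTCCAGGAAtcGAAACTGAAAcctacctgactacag
Tgtp2: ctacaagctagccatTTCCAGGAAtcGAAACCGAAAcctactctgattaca
Gm12185: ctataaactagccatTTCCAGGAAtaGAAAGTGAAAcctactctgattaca
Irgm1: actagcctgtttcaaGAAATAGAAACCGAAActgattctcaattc
These stretches are, in order, chr11:58214887-58214937 (plus strand), chr11:58199496-58199546 (plus), chr11:48992299-48992349 (minus), chr11:49064258-49064308 (minus), chr11:48927233-48927283 (minus) and chr11:48871421-48871465 (minus). In Irgm2, Igtp, Tgtp1 and Tgtp2, and in the relative Gm12185, a GAS core was followed by an ISRE core after 2 bases. The GAS core began 75, 45, 88, 81 and 86 bases before the start in those 5 genes. Irgm1 had 2 overlapping ISRE cores, 30 and 24 bases before its start, and no GAS core, and the Ifi47 window held neither.

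Among the members, 4 of 6 windows held a GAS core, 5 of 6 an ISRE core and 4 of 6 both. Of all 32851 windows, 8.3% held a GAS core, 3.44% an ISRE core and 0.454% both. The joined arrangement, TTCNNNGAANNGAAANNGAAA on either strand, occurred in 5 of the 32851 windows, and these were the windows of Irgm2, Igtp, Tgtp1, Tgtp2 and Gm12185. This longer pattern was written down after the members' sequences had been read, and IRG genes are duplicates of one another, so the count describes shared letters and is not a test. A match is not evidence that a factor bound there, and no match says only that the letters are not in the window.

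**Figure D1:**
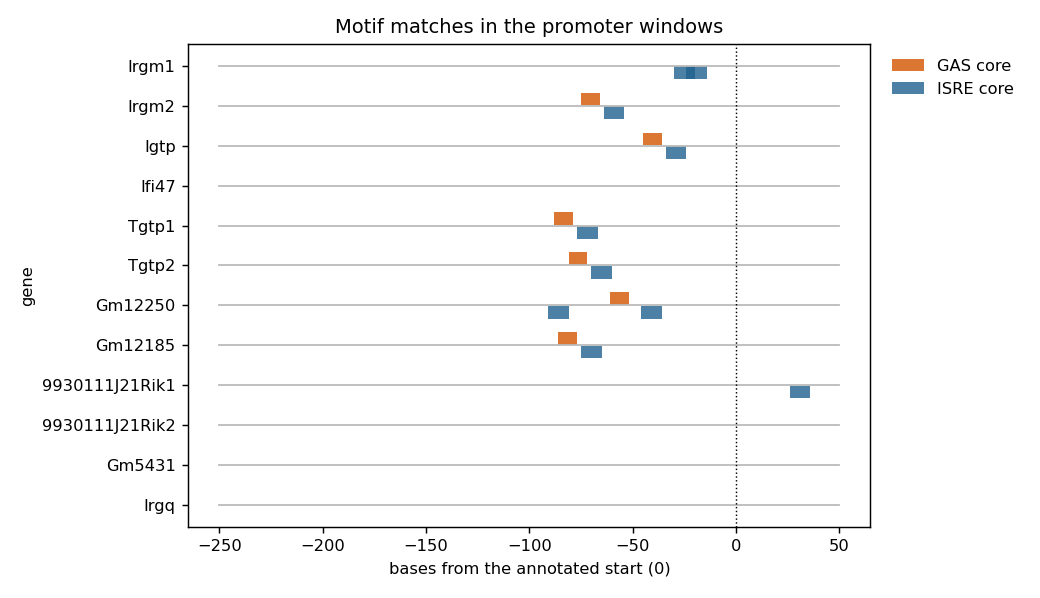
Matches to the GAS core (orange) and ISRE core (blue) in the promoter windows of 6 IRG members and 6 relatives. The x axis is the distance in bases from the annotated start, and each row is a gene. In Irgm2, Igtp, Tgtp1, Tgtp2 and Gm12185 a GAS core lies just before an ISRE core, and Ifi47 has no match.

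All 7 members were higher in every library with IFN-γ and in every library with IL-27 than in any library with IL-33 alone. The 6 members other than Iigp1 rose in both comparisons (limma, adjusted p under 0.05), against a background of 2.19% of genes tested that rose with IFN-γ (0.717% fell) and 0.908% that rose with IL-27 (0.118% fell). Groups that did not overlap in this direction were found for 11.9% and 8.29% of genes tested, respectively. Iigp1 was under the threshold as well, but it entered the test through its treated libraries alone and is described by its values. The 2 comparisons share the same 3 IL-33 libraries, so they are not independent of each other. In these bulk libraries, more RNA per cell and a larger share of cells with the RNA cannot be told apart.

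Among the regulators, Irgm1, which acts on Golgi and lysosomal membranes and in autophagy, had 27.6, 39.3 and 82.5 FPKM with IL-33 alone. It had 390, 532 and 729 FPKM with IFN-γ, and 325, 365 and 415 FPKM with IL-27. The lowest treated library was thus well above the highest library with IL-33 alone, and the IFN-γ and IL-27 ranges overlapped. On the log2(FPKM + 1) scale the gene rose by 3.54 ± 0.36 (SE) with IFN-γ, 11.6-fold (adjusted p = 0.000798), and by 3.00 ± 0.36 with IL-27, 8.01-fold (adjusted p = 0.00374).

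Irgm2, found mainly at the Golgi, had 13.5, 12.8 and 25.3 FPKM with IL-33 alone, 136, 139 and 212 FPKM with IFN-γ, and 96.4, 96.3 and 131 FPKM with IL-27. None of the 3 groups overlapped, so that the libraries were ordered IL-33, IL-27 and IFN-γ. The change on the log2(FPKM + 1) scale was 3.20 ± 0.29 with IFN-γ (9.19-fold, adjusted p = 0.000326) and 2.63 ± 0.29 with IL-27 (6.2-fold, adjusted p = 0.00218). These were the smallest changes among the 7 members.

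Igtp, the regulator of the endoplasmic reticulum, had 33.5, 51.4 and 75.2 FPKM with IL-33 alone. It reached 621, 926 and 1389 FPKM with IFN-γ and 559, 583 and 745 FPKM with IL-27, the highest mean of any member in both treated groups. It rose by 4.17 ± 0.34 on the log2(FPKM + 1) scale with IFN-γ (18-fold, adjusted p = 0.000193) and by 3.60 ± 0.34 with IL-27 (12.1-fold, adjusted p = 0.000941). Among all features of a library ranked by FPKM, Igtp stood at ranks 2718, 1926 and 1298 with IL-33 alone, 141, 116 and 83 with IFN-γ, and 159, 161 and 146 with IL-27.

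Ifi47, a GKS protein whose action on vacuoles is less well described, followed Igtp closely. It had 31.8, 53.2 and 88.6 FPKM with IL-33 alone, 593, 866 and 1092 FPKM with IFN-γ, and 509, 586 and 697 FPKM with IL-27. Its change was 3.93 ± 0.35 on the log2(FPKM + 1) scale with IFN-γ (15.2-fold, adjusted p = 0.00032) and 3.45 ± 0.35 with IL-27 (10.9-fold, adjusted p = 0.00141). Of its exonic bases, 111 (4.79%) are shared on the same strand with the olfactory receptor gene Olfr56.

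**Figure D2:**
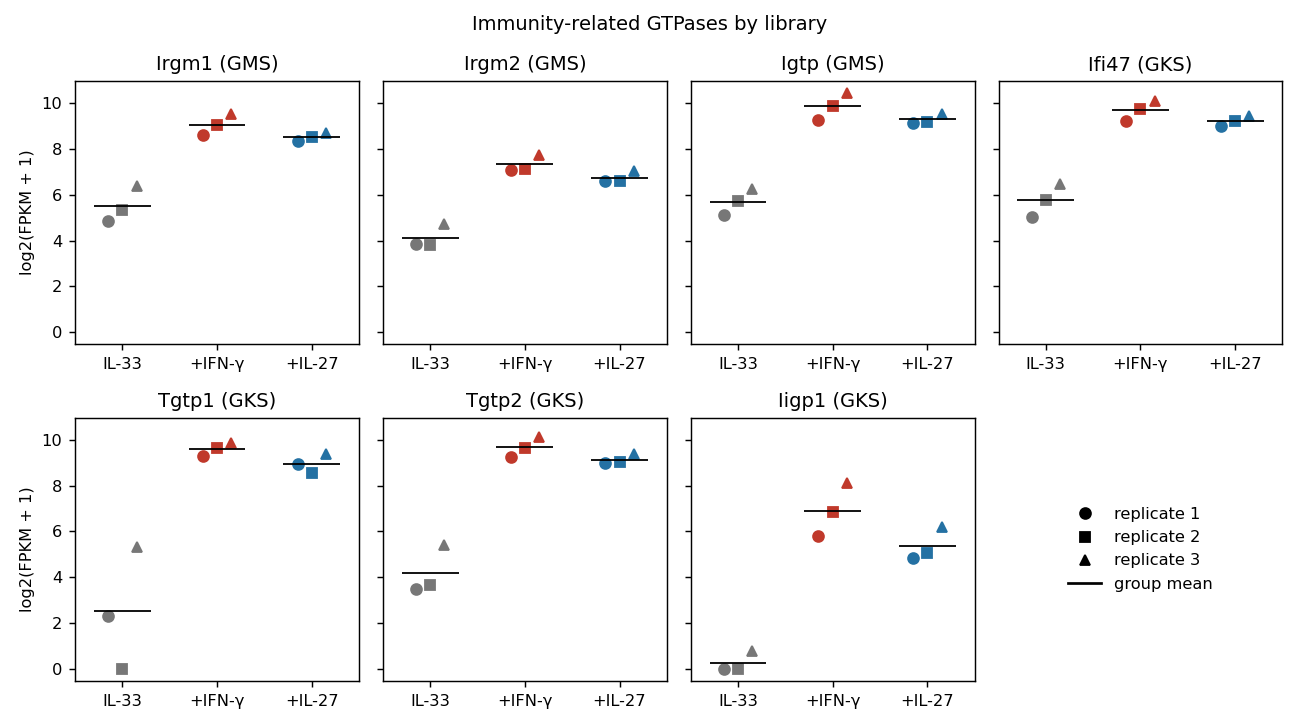
Level of each IRG member in all 9 libraries, as log2(FPKM + 1) on the y axis, by group on the x axis. Symbols mark the replicate number and lines the group mean on this scale. In all 7 genes the treated libraries lie above the IL-33 libraries, and Iigp1 and Tgtp1 lie at or near 0 in some IL-33 libraries.

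The Tgtp pair, effectors of the Irgb6 kind, showed a larger fold change than the regulators. Their coding sequences, 1248 bases each, differ at 4 bases (99.7% identity), and 89.4% of the 50-base windows of the Tgtp1 transcript also occur in that of Tgtp2, so the division of fragments between them is uncertain. Tgtp1 also shares 223 exonic bases with Gm12185 on the same strand, 6.96% of its own. The listed split of the pair varied with IL-33 alone, where Tgtp1 made up 27.6%, 0.0364% and 49% of the sum in replicates 1, 2 and 3. In the treated libraries it made up 41.4% to 50.5%.

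Tgtp1 had listed values of 3.91, 0.00429 and 39.5 FPKM with IL-33 alone, 624, 804 and 941 FPKM with IFN-γ and 491, 372 and 664 FPKM with IL-27. The second IL-33 library stood far below the others, at an estimated 0.012 fragments, where 3 fragments would be 1.07 FPKM. With less than 1 fragment and an uncertain split with Tgtp2, that value is not a measured level of the gene. The change was 7.06 ± 1.02 on the log2(FPKM + 1) scale with IFN-γ (adjusted p = 0.00503) and 6.41 ± 1.02 with IL-27 (adjusted p = 0.0179), with the largest standard errors of the 7 members. Without IL-33 replicate 2 the changes were 5.79 and 5.14, and without IL-33 replicate 3 they were 8.46 and 7.80. The IL-27 call was lost in 6 of 23 alternative analyses, among them the omission of IL-33 replicate 1 (adjusted p = 0.0708), IL-27 replicate 1 (0.0696), replicate 2 (0.0635) or replicate 3 (0.0843).

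Tgtp2 had 10.3, 11.8 and 41.1 FPKM with IL-33 alone, 614, 789 and 1100 FPKM with IFN-γ, and 502, 525 and 674 FPKM with IL-27. It rose by 5.48 ± 0.44 on the log2(FPKM + 1) scale with IFN-γ (44.5-fold, adjusted p = 0.000193) and by 4.95 ± 0.44 with IL-27 (30.9-fold, adjusted p = 0.000756), or by 6.08 and 5.55 without IL-33 replicate 3. The sum of Tgtp1 and Tgtp2, which does not depend on the split, was 14.2, 11.8 and 80.6 FPKM with IL-33 alone, 1237, 1593 and 2041 FPKM with IFN-γ, and 992, 897 and 1338 FPKM with IL-27. The ratio of mean FPKM of the sum was 45.7 for IFN-γ and 30.3 for IL-27 against IL-33 alone. IL-33 replicate 3 lowered both: without it the ratios were 125 and 83, and within replicate numbers 1, 2 and 3 they were 87.4, 135 and 25.3 for IFN-γ and 70.1, 76.2 and 16.6 for IL-27.

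Iigp1, the best studied effector, was the member nearest to silence without IFN-γ or IL-27. The IL-33 libraries listed it at 0, 0 and 0.7 FPKM, against 54.9, 113 and 274 FPKM with IFN-γ and 27.9, 32 and 72.3 FPKM with IL-27. A level of 3 fragments would have been at most 1.09 FPKM in the IL-33 libraries, by the depth estimated below, and all 3 lay under it. That level rests on an approximate depth, and it was set by replicate 3, whose values are rounded to 1 decimal. Measured from it, the mean was about 135-fold or more higher with IFN-γ and about 40.3-fold or more higher with IL-27. For the lowest treated library these folds were 50.2 and 25.5. The limma estimate was 6.66 ± 0.55 on the log2(FPKM + 1) scale with IFN-γ, or 6.06 without IFN-γ replicate 3, and 5.11 ± 0.55 with IL-27. These sizes depend on the pseudocount of 1, and since Iigp1 passed the filter on low values only where it was high, they are given as a description.

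**Figure D3:**
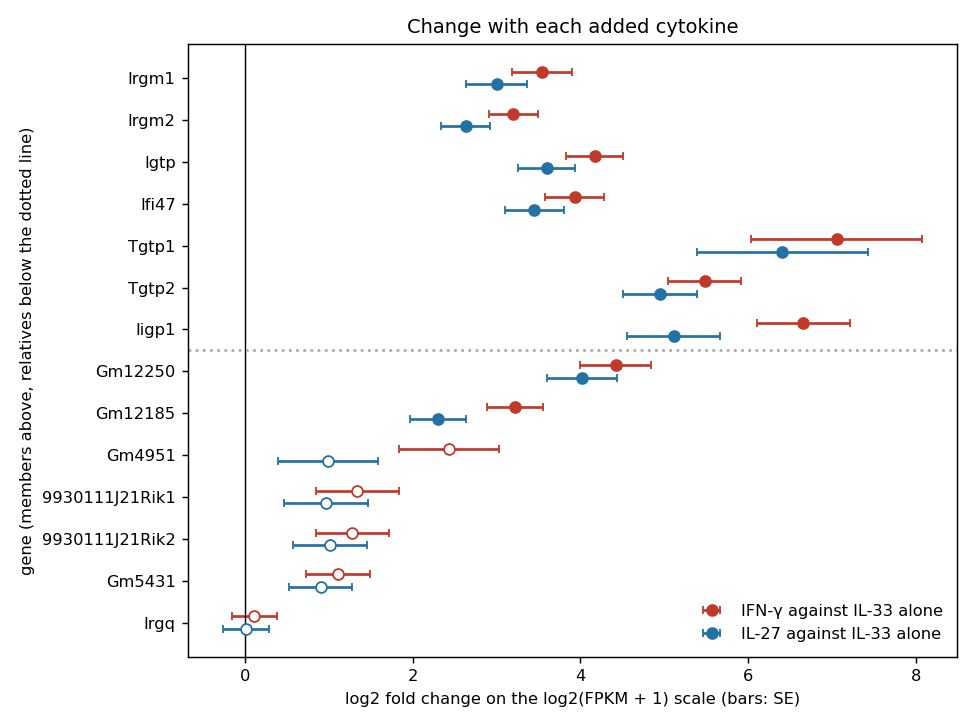
Log2 fold change against IL-33 alone (x axis, log2(FPKM + 1) scale) for the 7 members above the dotted line and 7 tested relatives under it. Points are limma estimates, bars are SE, and filled points passed adjusted p under 0.05. All 7 members and the relatives Gm12250 and Gm12185 are filled for both cytokines, and Iigp1 and Gm4951 entered the test through treated libraries alone.

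As a class, the 3 effectors (Iigp1, Tgtp1, Tgtp2) had a mean change of 6.40 with IFN-γ and 5.49 with IL-27 on the log2(FPKM + 1) scale. The 3 regulators (Irgm1, Irgm2, Igtp) had means of 3.64 and 3.08. With IFN-γ the effectors ran from 5.48 to 7.06 and the regulators from 3.20 to 4.17, without overlap. Iigp1 passed the filter on low values only where it was high, and its estimate with IFN-γ ran from 4.58 to 9.22 over the alternative analyses. Tgtp1 and Tgtp2 are near-identical and their split is uncertain. The highest effector value, that of Tgtp1, includes an IL-33 library listed at 0.00429 FPKM. The median over all genes tested was 0.03 with IFN-γ and 0.01 with IL-27. The difference in mean change between the classes, 2.76 with IFN-γ and 2.41 with IL-27, is a description and was given no test, since the members were known to respond when they were chosen.

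The same contrast can be read within each library, as the mean log2(FPKM + 1) of the effectors minus that of the regulators. With IL-33 alone it was −2.68, −3.72 and −1.95 (mean −2.78, SD 0.89), so the effector mean lay below the regulator mean in all 3 libraries, although in replicate 3 both Tgtp1 and Tgtp2 were above Irgm2. With IFN-γ it was −0.21, 0.02 and 0.13 (mean −0.02, SD 0.17), and with IL-27 it was −0.44, −0.56 and −0.11 (mean −0.37, SD 0.24). The classes were near the same level in the treated libraries, and all 6 values lay above all 3 values of IL-33 alone. The values of IL-33 alone include Iigp1 at 0, 0 and 0.7 FPKM, which passed the filter on low values only where it was high. That of replicate 2 also includes Tgtp1 at 0.00429 FPKM, which is not a measured level, so the separation is a description. The size of the contrast rests on which genes count as effectors. With Ifi47 added to the effectors the difference with IFN-γ was 2.14, and with the 6 tested GKS relatives added as well it was 0.06 with IFN-γ and −0.07 with IL-27.

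As shares of the summed FPKM of the 7 members, the regulators made up 58.4% ± 5.67 (SD, n = 3) with IL-33 alone, 38.9% ± 1.5 with IFN-γ and 39.3% ± 1.42 with IL-27. The effectors made up 13.9% ± 8.25, 41.3% ± 1.19 and 39.5% ± 2.78 in the same order, and Ifi47 27.7% ± 3.43, 19.8% ± 0.903 and 21.2% ± 1.44. Irgm1 alone went from 23.2% ± 0.268 to 12.8% ± 0.0742 with IFN-γ and 13.1% ± 1.04 with IL-27. Iigp1 remained a small part of the total, at 3.1% ± 1.52 with IFN-γ and 1.5% ± 0.551 with IL-27. The effector share ran from 6.98% to 23% with IL-33 alone and from 36.3% to 42.6% in the treated libraries, with no overlap.

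**Figure D4:**
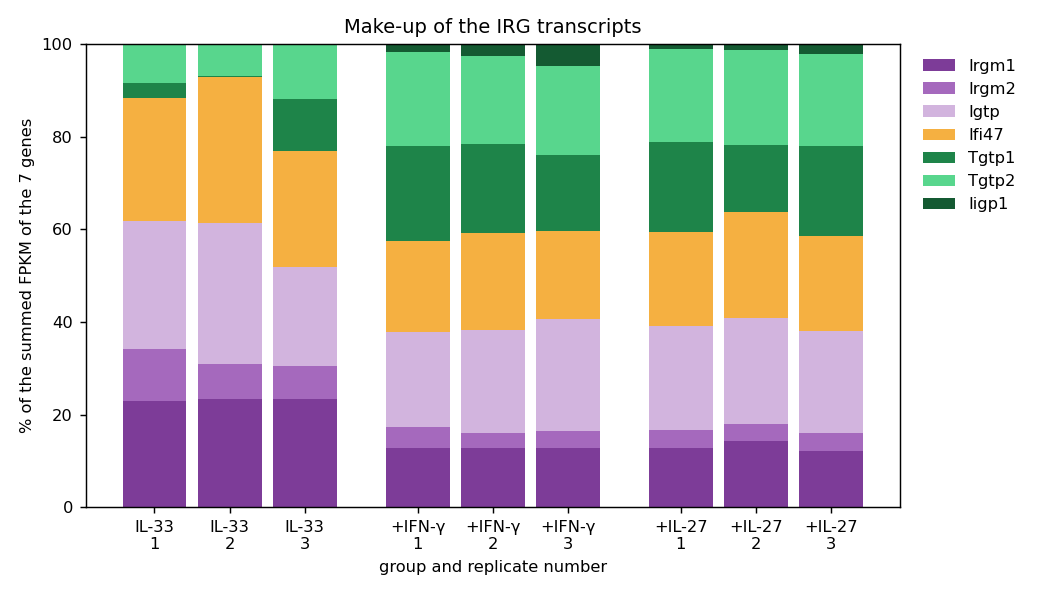
Share of each member in the summed FPKM of the 7 IRG genes (y axis, percent) in each library (x axis, by group and replicate number). The regulators take 51.9% to 61.9% with IL-33 alone and 37.8% to 40.8% with either added cytokine.

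The summed level of the 7 members was 121, 169 and 353 FPKM with IL-33 alone, 3031, 4169 and 5738 FPKM with IFN-γ, and 2510, 2559 and 3399 FPKM with IL-27. As a share of all FPKM in a library this was 0.0187% to 0.0561%, 0.477% to 0.875% and 0.398% to 0.513%, respectively. The order of mean FPKM with IL-33 alone was Ifi47, Igtp, Irgm1, Tgtp2, Irgm2, Tgtp1 and Iigp1, and the ranges of all neighbours in it overlapped. Within libraries, Irgm1 was above Tgtp2 and Tgtp1 above Iigp1 in 3 of 3, and the other neighbours changed places. In replicate 2, however, Tgtp1 was listed at 0.00429 FPKM, an estimated 0.012 fragments, so its place above Iigp1 there is not resolved. With IFN-γ the order was Igtp, Ifi47, Tgtp2, Tgtp1, Irgm1, Irgm2 and Iigp1. The first 5 overlapped with their neighbours, Irgm1 lay above Irgm2 without overlap, and Irgm2 and Iigp1 overlapped. Within the IFN-γ libraries, Igtp was above Ifi47 and Tgtp1 above Irgm1 in 3 of 3. With IL-27 the order was the same as with IFN-γ, and there both Irgm1 and Irgm2, and Irgm2 and Iigp1, were apart. Within the IL-27 libraries each gene was above the next in 3 of 3, except that Igtp was above Ifi47 in 2.

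When IFN-γ was compared directly with IL-27, no member passed the test (limma, adjusted p = 1 for all 7). Of the genes tested, 0% passed as higher with IFN-γ and 0% as lower, while 483 genes, among them Iigp1 as the single member, had an unadjusted p under 0.05. The estimate was above 0 for all 7, against a median of 0.01 over all genes tested. It was 1.55 ± 0.55 for Iigp1 (2.92-fold, 95% interval 0.31 to 2.78), 0.57 ± 0.29 for Irgm2 (interval −0.07 to 1.21) and 0.57 ± 0.34 for Igtp (interval −0.18 to 1.32), all on the log2(FPKM + 1) scale. The intervals of the other 4 members also included 0, and that of Tgtp1 was the widest, from −1.62 to 2.92. Irgm2 was the single member whose IFN-γ and IL-27 libraries did not overlap, a state that 5.5% of genes tested shared in this direction.

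Libraries with the same replicate number deviated together from their group means, so the ratio of IFN-γ to IL-27 was also taken within each number. It was above 1 for all 7 members in all 3 numbers. The members vary together across the same libraries, so the 7 are not independent of each other. The share of all genes tested with ratios above 1 in all 3 numbers was not computed. For Iigp1 the ratio was 1.97, 3.52 and 3.79, and for Irgm2 it was 1.41, 1.45 and 1.62. The ratios of the other 5 members lay between 1.11 (Igtp, replicate 1) and 2.16 (Tgtp1, replicate 2). With replicate number as a block in the limma fit, still no member passed, the lowest adjusted p being 0.0821 for Iigp1 and 0.146 for Irgm2, while 0.0545% of genes tested passed as higher with IFN-γ.

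**Figure D5:**
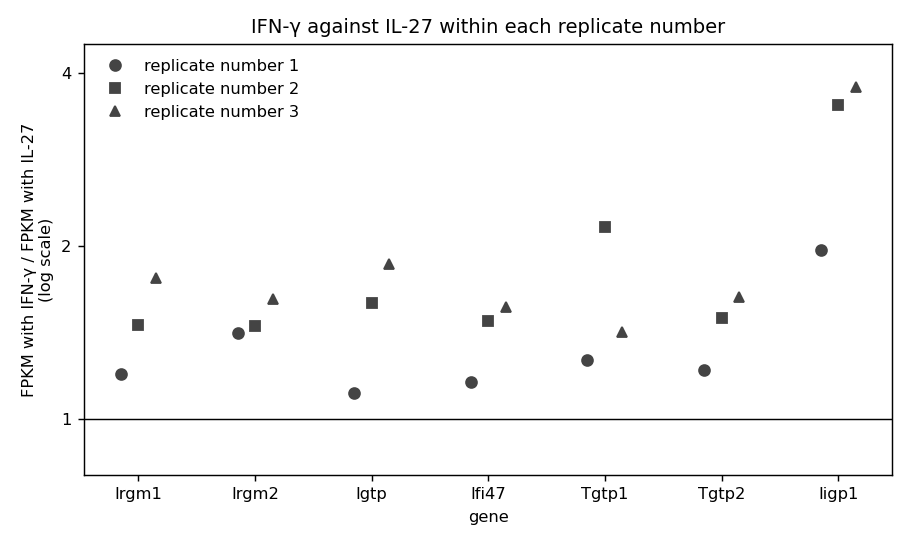
Ratio of FPKM with IFN-γ to FPKM with IL-27 (y axis, log scale) for each member (x axis), taken between libraries of the same replicate number, which the symbols mark. All 21 ratios are above 1, and those of Iigp1, from 1.97 to 3.79, reach highest. The genes vary together and share the same libraries, so the ratios are not independent of each other.

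The wider family was taken from a list of 15 names, of which 9 were in the tables and 7 were tested. Of the 7 tested relatives, 2 rose with IFN-γ and the same 2 with IL-27, where 2.19% and 0.908% of genes tested rose. With replicate number as a block 6 passed as higher with IFN-γ and 4 with IL-27, where 6.51% and 3.37% of genes tested did. Gm12250 (Irgb10, an effector that also attacks bacterial membranes), beside Igtp at chr11:57997345-58003700 (mm9), had 2.44, 6.34 and 9.6 FPKM with IL-33 alone, 94.6, 129 and 208 FPKM with IFN-γ, and 83.4, 99 and 133 FPKM with IL-27. Its changes of 4.42 ± 0.42 (adjusted p = 0.000458) and 4.02 ± 0.42 (adjusted p = 0.00171) on the log2(FPKM + 1) scale lay between those of Igtp and Tgtp2. Gm12185, which shares 223 exonic bases with Tgtp1 (3.99% of its own), had 1.16, 0.992 and 3 FPKM, then 17.7, 21.1 and 32.7 FPKM with IFN-γ, and 12.4, 9.67 and 13.3 FPKM with IL-27. It rose by 3.22 ± 0.33 with IFN-γ (adjusted p = 0.000755) and by 2.30 ± 0.33 with IL-27 (adjusted p = 0.00984).

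Gm12185, Gm5431, 9930111J21Rik1 and 9930111J21Rik2 are tandem genes whose coding sequences hold the G1 run 2 times. The last 3 did not pass: with IFN-γ their estimates on the log2(FPKM + 1) scale were 1.11 (adjusted p = 0.195), 1.34 (0.229) and 1.28 (0.195). With replicate number as a block these 3 passed with IFN-γ (adjusted p = 0.0258, 0.00261 and 0.00214). With IL-27, 9930111J21Rik1 (adjusted p = 0.017) and 9930111J21Rik2 (0.00955) passed with the block. Of the 50-base windows of the 9930111J21Rik1 transcript, 76.2% also occur in that of 9930111J21Rik2, so their separate values are uncertain.

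Gm4951, a neighbour of Iigp1 on chromosome 18, had 1.04, 0.463 and 0.9 FPKM with IL-33 alone, 4.12, 7.53 and 19.2 FPKM with IFN-γ, and 0.563, 3.47 and 5.4 FPKM with IL-27. Its mean with IL-33 alone was under the filter, so it entered the test, and the blocked count of relatives, through its treated libraries alone. Its estimate with IFN-γ, given as a description, was 2.43 ± 0.60. F830016B08Rik, of the same cluster, was at 0 with IL-33 alone in each library and reached 4.4 FPKM at most. Of the relatives outside these clusters, Irgq had 4.8 to 9.2 FPKM in all libraries, with an estimate of 0.11 ± 0.27 with IFN-γ (adjusted p = 0.909), and Irgc1 was listed at 0 in all 9.

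In all 3 groups replicate 3 had the highest value for 7 of 7 members, which 15.8% of genes tested did. Against the mean of replicates 1 and 2, replicate 3 was 1.32 to 3.27 times as high with IFN-γ and 1.2 to 2.41 times with IL-27. With IL-33 alone it was 1.77 to 3.73 times as high for the members other than Tgtp1 and Iigp1. Tgtp1 stood at 20.2 times, but its replicate 2 value of 0.00429 FPKM is not a measured level. Iigp1 was at 0 in replicates 1 and 2. The replicate 3 tables are rounded to 1 decimal, and their summed FPKM of 8 fibroblast markers was the highest of each group, at 36.2, 86.5 and 63.7 against 2.92 to 17.6 in the other libraries. The part of this in the IRG levels was not tested. With replicate 3 left out of every group, the 6 members other than Iigp1 still passed in both comparisons with IL-33 alone.

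Depth was estimated from the tables, since values at low levels fall on multiples of what 1 fragment is worth. The estimate, which is approximate, ran from 879023 to 995405 fragments per library, and 10504 to 11004 genes had at least 1 FPKM. All 12 ILC2 markers, among them Gata3, Rora and Il1rl1, were at 1 FPKM or more in all 9 libraries. Their sum was 13767 to 21565 FPKM with IL-33 alone, 5690 to 9643 with IFN-γ and 12033 to 12985 with IL-27. Il5 and Il13 made up most of it in every library, so the sum mainly follows these cytokines. With IL-33 alone they had 5587 to 9222 and 5428 to 11034 FPKM, and with IFN-γ 1656 to 3450 and 2511 to 3348 FPKM. Of the 12 markers, 9 did not pass in either direction with IFN-γ. In this list Il5 (adjusted p = 0.0167) and Il13 (0.0282) fell with IFN-γ, and Areg rose with IFN-γ (0.0169) and IL-27 (0.0165). The macrophage and dendritic cell markers Csf1r, C1qa, C1qb and Fcgr1 were at 0 in all 9, Cd68 ran from 1.16 to 18.8 FPKM, and the 12 markers in the tables summed to 3.66 to 11.1 FPKM with IL-33 alone, 6.35 to 20.8 with IFN-γ and 1.23 to 19 with IL-27. Sums in the same order were 34 to 82, 35.9 to 82.7 and 48.6 to 105 for T cell markers (Cd3g 28.4 to 97.6 and Cd8b1 1.52 to 7.15 in all 9, Cd4 and Cd5 at 0) and 34.5 to 41.5, 20.9 to 85.5 and 33.2 to 57.7 for B cell markers (Cd79b 20.3 to 83.9 in all 9, Pax5 at 0). They were 1.31 to 4.1, 1.78 to 4.2 and 1.22 to 3 for NK cell markers (Gzma at 0) and 1.13 to 5.7, 0 to 9.1 and 2.27 to 11.5 for mast cell and basophil markers. The endothelial and mesothelial sum was 50 to 78.3, 158 to 204 and 81.7 to 106 FPKM. Nearly all of it was Pecam1, at 49.1 to 78.3, 158 to 204 and 81.7 to 106 FPKM, which rose with IFN-γ (limma, adjusted p under 0.05). None of the other markers in this list exceeded 1.2 FPKM, and Kdr, Msln, Upk3b, Krt18 and Krt19 were at 0 in all 9. The part of these markers in the IRG values was not tested.

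Genes that act with the IRG proteins were read from fixed lists. The guanylate-binding proteins (GBPs), large GTPases that are recruited to the same vacuoles, rose as a whole: 11 of 11 tested with IFN-γ and 11 of 11 with IL-27, with median changes of 4.16 and 3.43 on the log2(FPKM + 1) scale against medians of 4.17 and 3.60 for the IRG members. The shares of all genes tested that rose were 2.19% and 0.908%, here and for the lists that follow. Gbp2 had 11.2 ± 4.63 FPKM (SD, n = 3) with IL-33 alone, 1370 ± 617 with IFN-γ and 624 ± 153 with IL-27, and Gbp6 had 2.61 ± 1.61, 321 ± 107 and 139 ± 29.6. With the replicate block, 2 of the 11 GBPs passed as higher with IFN-γ than with IL-27, where 0.0545% of genes tested did. Gbp2 was among them (limma, adjusted p = 0.0361) and Gbp6 was not (0.0666). No IRG member passed, although the estimate of Iigp1, 1.55 ± 0.55, was larger than that of Gbp2, 1.07 ± 0.36.

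Of 4 tested other large interferon-inducible GTPases, 3 rose with IFN-γ (Gvin1, Gm8979 and Gm17757) and 2 with IL-27 (Gm8979 and Gm17757), with median changes of 2.57 and 1.72. Gvin1 had 18.7, 115 and 22.9 FPKM with IL-27, against 11.2 to 19.1 FPKM with IL-33 alone, so a single library stood apart. Irf1, a transcription factor that binds the ISRE, had 51.5 ± 35.9 FPKM with IL-33 alone, 525 ± 153 with IFN-γ (adjusted p = 0.00182) and 388 ± 81.1 with IL-27 (adjusted p = 0.00648), and rose in both comparisons.

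The autophagy conjugation proteins, which IRG and GBP proteins need to reach a vacuole, and their adaptors did not pass the test: 0 of 21 in either direction with either cytokine by limma. The medians were −0.01 with IFN-γ and 0.11 with IL-27, 1 gene in each comparison had an unadjusted p under 0.05, and with the replicate block 1 passed as higher in each. At 2.19% and 0.908% of genes tested, or 6.51% and 3.37% with the block, these counts are near the background for 21 genes. Gabarap, an abundant member of this list, had 211 ± 74.3 FPKM with IL-33 alone, 280 ± 63.8 with IFN-γ (adjusted p = 0.512) and 304 ± 72.2 with IL-27 (adjusted p = 0.58, or 0.0365 with the block). Of 5 tested ubiquitin ligases that mark attacked vacuoles, Trim21 rose with both cytokines, from 7.72 ± 3.11 to 22.1 ± 2.09 FPKM with IFN-γ (adjusted p = 0.0234) and 22.3 ± 6.14 with IL-27 (adjusted p = 0.0478). None of these lists held a call between IFN-γ and IL-27 in the limma fit without the block, where 9 of the 11 GBPs and 483 of the 11014 genes tested had an unadjusted p under 0.05.

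Across the 9 libraries, each member followed the mean log2(FPKM + 1) of the other 6 with a Pearson r from 0.956 (Tgtp1) to 0.997 (Irgm2 and Tgtp2). Among 8926 genes compared, those most like the mean of the 7 members included Casp1 (r = 0.994), Irf1 (0.993), Gm8979 (0.993), Parp14 (0.992) and Gbp2 (0.991). These values describe 9 libraries that fall into a low group of 3 and a high group of 6, so they mostly record that a gene was low with IL-33 alone and high in the rest. Casp1, the inflammatory caspase, had a far smaller range than any IRG member, at 46.8 ± 7.85 FPKM with IL-33 alone, 110 ± 14.7 with IFN-γ and 98.6 ± 5.23 with IL-27.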

How the data were processed

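TruSeq v2 libraries were made from RNA of cultured ILC2s (Allprep Micro kit), per the labels' protocols. The submitters' processing notes name TopHat2 2.0.8, Cufflinks 2.1.1, Bowtie2 2.1.0 and build mm9, and give no roles or parameters. The deposited tables hold 1 value per gene and library, taken as the authors' FPKM from the Cufflinks column header, the decimals and the unequal sums (628625 to 672534), since the unit is not written in them. Commas grouping digits were removed, and 25 symbols turned into dates were kept unnamed.

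Values were analysed as log2(FPKM + 1) with limma 3.58.1 in R 4.3.3, over genes whose mean FPKM was 1 or more, all 9 libraries in 1 fit with a mean-variance trend, two-sided, Benjamini-Hochberg adjusted over all 11014 genes tested. The labels number replicates 1 to 3 in each group. All 9 same-number pairs of libraries had correlated deviations (r from 0.128 to 0.367), and the other 18 pairs ran from −0.298 to −0.0251. Deviations from a group mean cancel out within the group, so positive same-number pairs force negative values in the others on average. The 18 are thus not separate evidence, and by this check of the data the numbers pair the libraries through the 9 same-number values. A fit with replicate number as a block was therefore run beside the reported one. The script was tested on simulated data. Gene models, coding sequences and mm9 coordinates came from GENCODE vM1, and promoters from RefSeq (GRCm38.p6). Small RNAs took 3.51% to 18% of a library's summed FPKM.

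Named genes were all members and listed relatives, the 2 largest changes and most abundant gene of each other list, and the 6 genes most correlated with the members. Some that the rule names on the lists of autophagy genes and ubiquitin ligases are given in the closing section. Some results that the rule covers are not reported here. The members and lists were chosen with earlier results of these data known.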

Additional observations from a re-analysis of the deposited data

How the results depend on the processing

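Over up to 23 alternatives per result (other pseudocounts, filters, scalings, variance models, sample sets and the replicate block), no member changed direction. The number of members called, Iigp1 included, was 7 with IFN-γ under every alternative with 7 members tested (6 of 6 with Tgtp1 and Tgtp2 summed), 6 or 7 with IL-27, and 0 for IFN-γ against IL-27. The call lost was always Tgtp1 with IL-27, for instance with a pseudocount of 0.1 (adjusted p = 0.0606) or with the 2 groups compared alone (0.107). Leaving out 1 library at a time gave 6 to 7 members with IL-27. Iigp1 entered the test through its treated libraries alone, so its calls add no support to these counts. In the reported fit 2.19% of genes tested rose with IFN-γ and 0.908% with IL-27, and gene counts under several alternatives follow.

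The replicate block changed no member's call. It raised the genes called from 241 to 717 higher and 79 to 513 lower with IFN-γ, from 100 to 371 higher and 13 to 196 lower with IL-27, and from 0 to 6 higher and 14 lower for IFN-γ against IL-27. With libraries 1 and 2 of each group alone these 6 counts were 148, 28, 65, 3, 1 and 1. Adding the block to that set, an alternative chosen after seeing the data, gave 327 higher and 132 lower with IFN-γ, 154 higher and 34 lower with IL-27, and 1 higher and 2 lower for the direct comparison. With the 2 groups compared alone, 154 rose and 33 fell with IFN-γ and 54 rose with IL-27. Removing small RNAs gave 128 lower with IFN-γ. Without the variance trend 8 fell with IL-27, and without the trend or without the filter the direct comparison gave 1 higher and 1 lower. Leaving out 1 library gave 134 to 238 higher and 27 to 71 lower with IFN-γ, 46 to 115 higher and 4 to 13 lower with IL-27, and 0 to 1 in each direction directly. No cause of these shifts was tested.

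The effector minus regulator difference in mean log2 change was 4.0 and 3.65 (IFN-γ, IL-27) with a pseudocount of 0.1 and 1.77 and 1.44 with 5, since Iigp1 and Tgtp1 have IL-33 values at or near 0. It was 2.14 (IFN-γ) with Ifi47 counted as an effector, and 0.06 (IFN-γ) and −0.07 (IL-27, the opposite sign) with the relatives as well. Leaving out 1 library gave 2.29 to 3.18 and 1.94 to 2.83. Depth limits the IL-33 level of Iigp1, which lies under the worth of 3 fragments.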

Other observations

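Further genes on the lists of IRG partners gave no call by limma without the replicate block. Atg10, an enzyme that conjugates ATG12 to ATG5, had 1.45, 0.663 and 0.7 FPKM with IL-33 alone, 3.59, 2.01 and 6.9 FPKM with IFN-γ (adjusted p = 0.129, or 0.0494 with the replicate block) and 2.2, 1.99 and 2.7 FPKM with IL-27 (adjusted p = 0.586). Its mean with IL-33 alone, 0.937 FPKM, was under the filter on low values. It thus entered the test, and the blocked count of autophagy genes, through its treated libraries alone, and these values are a description. Both treated groups lay above the IL-33 libraries, which 11.9% (IFN-γ) and 8.29% (IL-27) of genes tested also did. Map1lc3a, which codes for an LC3 protein of the autophagosome membrane, had 0, 6.64 and 4.8 FPKM with IL-33 alone and 1.31, 30.9 and 7.4 FPKM with IL-27, a spread set by single libraries. Rbck1 (HOIL-1) and Rnf31 (HOIP), subunits of the linear ubiquitin ligase, had 57.1 ± 12.6 and 9.14 ± 2.63 FPKM (SD, n = 3) with IL-33 alone and 80.2 ± 4.6 and 10.8 ± 2.41 FPKM with IFN-γ (adjusted p = 0.273 and 0.757).

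The relative Gm12250 had a different order of promoter motifs from Irgm2, Igtp, Tgtp1 and Tgtp2. Its window held 2 ISRE cores, 91 and 46 bases before the start, on the opposite strand, with the GAS core between them at 61 bases. The matches are in capitals, at chr11:58183737-58183821 (plus strand, GRCm38.p6).
Gm12250: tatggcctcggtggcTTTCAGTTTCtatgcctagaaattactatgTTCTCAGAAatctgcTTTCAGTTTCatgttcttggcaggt
The windows of Gm5431, 9930111J21Rik2 and Irgq held no match, and that of 9930111J21Rik1 held an ISRE core after the start.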
